A study of Homo sapiens with 4 samples.

Results

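The terminal genes of the short arm of human chromosome 1 were examined in messenger RNA libraries of 2 lung adenocarcinoma cell lines. They are the gene models that start below position 6400000 on chromosome 1 (hg38) and have at least 100 total exon reads in each of the 4 libraries. Of 193 gene models below that position 50 met the read minimum, out of 9184 autosomal genes that met it and 43622 gene models in all. The other 143 fell short of the minimum, and 58 of these had 0 reads in all 4 libraries. Among the 50 genes 45 code for proteins. The stretch was chosen by its exon read levels in the H1993 spheroid library against the other 3, so every ratio that contains this library describes the choice and carries no test.

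The libraries were H1993 cells grown as spheroids, H1993 cells grown adherent, A549 cells grown as spheroids and A549 cells grown adherent, with 1 library each and no added agent or genetic change in the labels. A549 and NCI-H1993 are established human lung adenocarcinoma lines, and spheroids are free-floating clusters of cells grown to enrich for cells with traits of stem cells. The study compared triacylglycerol synthesis between adherent culture and spheroids. With 1 library per group a difference has no replicate check, and line, culture and library cannot be told apart in a ratio of a pair of libraries.

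The chromosome end at 1p is rich in genes, in G and C bases and in CpG islands, and the genes there work in unrelated processes: Wnt and G protein signalling, mitochondrial translation, cleavage of nascent RNA, NADP synthesis and cilia. Cancer lines often carry extra or missing chromosome arms, and a gain of DNA can raise the RNA of many neighbouring genes together, whatever their function. Neighbours can also share chromatin state and base composition. The files hold RNA alone, so the number of DNA copies was not tested.

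Promoters of 3 of the genes show the base composition of the stretch. RefSeq promoters (GRCh38.p14) were matched by symbol for 43 of the 50 genes, and the 250 bases before the annotated start are printed 5′ to 3′ on the strand of the gene, with each CG pair in capitals. ARHGEF16 had the highest value for the smallest of the 3 ratios (chr1:3454415-3454664, plus strand), GNB1 had the most reads among matched genes that stood high (chr1:1891088-1891337, minus strand), and RPL22 had the most reads among the genes nearer the position limit that did not (chr1:6199596-6199845, minus strand).
ARHGEF16: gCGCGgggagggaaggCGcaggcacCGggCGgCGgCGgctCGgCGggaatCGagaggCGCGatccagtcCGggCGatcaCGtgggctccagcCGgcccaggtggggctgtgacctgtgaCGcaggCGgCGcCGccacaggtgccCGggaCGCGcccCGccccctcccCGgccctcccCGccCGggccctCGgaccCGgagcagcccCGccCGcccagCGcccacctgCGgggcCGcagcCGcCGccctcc
GNB1: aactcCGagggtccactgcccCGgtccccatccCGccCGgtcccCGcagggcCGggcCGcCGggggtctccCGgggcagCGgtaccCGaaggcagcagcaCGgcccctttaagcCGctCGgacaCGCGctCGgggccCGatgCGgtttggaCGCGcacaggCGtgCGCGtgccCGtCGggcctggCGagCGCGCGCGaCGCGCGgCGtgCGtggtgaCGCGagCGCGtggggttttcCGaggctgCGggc
RPL22: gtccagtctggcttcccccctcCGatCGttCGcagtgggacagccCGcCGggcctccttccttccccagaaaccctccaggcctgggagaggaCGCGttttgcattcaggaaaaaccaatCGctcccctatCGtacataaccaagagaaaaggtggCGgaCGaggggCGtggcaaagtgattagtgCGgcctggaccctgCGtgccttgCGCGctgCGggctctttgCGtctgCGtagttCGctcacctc
The promoters of ARHGEF16, GNB1 and RPL22 held 36, 42 and 20 CG pairs. Over the 43 matched promoters the median was 31 CG pairs, against 11 over all 35116 promoters of the table. The letters GGGCGG, a core of Sp1 sites that itself holds a CG pair, were found on either strand in 67.4% of the 43 promoters and in 42.6% of all promoters. GGAATG, the core bound by the TEAD factors that the study's title names, was found on either strand in 2 of the 43 promoters (4.65%), against 11.9% of all promoters. A match describes the letters alone.

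Exon reads per library were 15331121 in H1993 spheroids, 16606939 in the library labelled H1993 adherent, 17681746 in A549 spheroids and 15657295 in A549 adherent cells. Levels below are in CPM, exon reads scaled by library size and TMM factors, unless TPM is named, which is also divided by exon length. Ratios are on the log2 scale with the 95% exact counting interval in brackets, and this interval covers counting error alone. A549 adherent cells were close to the library labelled H1993 adherent: 8.83% of autosomal genes were at least 0.5 higher in this library than in A549 adherent cells, against 28.9% in H1993 spheroids than in this library. CDKN2A, which A549 cells lack, had 308 reads in H1993 spheroids. The library labelled H1993 adherent had 75 reads of it, and both A549 libraries had 0. The library labelled H1993 adherent is therefore called so throughout, and the main results over it are also given against the A549 libraries. EPCAM, KRT8, KRT18, KRT19 and CDH1, epithelial markers, had at least 266 reads in every library. The 7 lung epithelial markers summed to 10369 CPM in H1993 spheroids and 3084 in the library labelled H1993 adherent. They summed to 5241 CPM in A549 spheroids and 8820 in A549 adherent cells. Most of each sum came from KRT8 and KRT18. In the same order of libraries KRT8 had 79513, 32265, 52545 and 82350 reads, and KRT18 had 42450, 18583, 27256 and 54346. EPCAM had 4716, 266, 308 and 413 reads, KRT19 had 28510, 666, 5351 and 1311, and CDH1 had 3344, 1765, 1487 and 1642. EPCAM, KRT19 and CDH1 were thus highest in H1993 spheroids, as was the sum. In CPM, KRT8 was at 5199.9 in H1993 spheroids and 5185.5 in A549 adherent cells, and KRT18 was at 2776 and 3422. Of the lung-specific markers NKX2-1 had 13, 12, 0 and 0 reads and SFTPB had 2, 0, 2 and 0 reads in that order of libraries. The 4 markers of other cells summed to 139, 599, 1040 and 541 CPM, mostly from VIM, a mesenchymal marker, at 95.2, 582, 1017 and 532 CPM. The fibroblast marker COL1A1 went another way, with 38.7, 16.5, 15.7 and 9.26 CPM. PTPRC, the blood cell marker CD45, had 45 reads in H1993 spheroids and 0 in each of the others. The endothelial marker PECAM1 had 36, 7, 129 and 2 reads and was highest in A549 spheroids. The part of other cells in the results below was not tested, and in bulk RNA fewer cells of a type and less RNA per cell cannot be told apart.

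The terminal genes stood high in H1993 spheroids against each of the other 3 libraries, and as a group the first 43 in order from the chromosome end did so and the last 7 did not. The median log2 ratio of the 50 genes was 1.29 over the library labelled H1993 adherent, 1.42 over A549 spheroids and 1.38 over A549 adherent cells. Over all autosomal genes these medians were 0.07, 0.09 and 0.04. The 3 ratios share the H1993 spheroid library and are no independent evidence of each other. Between the libraries without H1993 spheroids the 50 genes showed no common shift: the median was -0.04 for A549 spheroids over A549 adherent cells and 0.01 for the library labelled H1993 adherent over A549 adherent cells.

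A log2 ratio of at least 0.5, near that of 3 copies to 2, was reached by 42 of the 50 genes over the library labelled H1993 adherent, where 28.9% of all autosomal genes reached it. Over A549 spheroids 44 genes reached it (background 30.6%), and over A549 adherent cells 43 did (background 28.1%). In A549 spheroids over A549 adherent cells 9 of 50 reached it (background 18.4%), and in the library labelled H1993 adherent over A549 adherent cells 5 did (background 8.83%), so both of these shares lay near their backgrounds. A ratio of at least 1 was reached by 35 genes over the library labelled H1993 adherent (background 13.1%), 34 over A549 spheroids (background 14.4%) and 34 over A549 adherent cells (background 13.3%). Few genes were lower by at least 0.5: in H1993 spheroids 2 over the library labelled H1993 adherent (background 23.2%), 1 over A549 spheroids (background 24.2%) and 2 over A549 adherent cells (background 25.4%). In A549 spheroids over A549 adherent cells 9 genes were that much lower (background 20.7%), and in the library labelled H1993 adherent over A549 adherent cells 2 were (background 9.61%). H1993 spheroids held the highest level of the 4 libraries in 43 genes (background 37.9%), and in 40 genes the lead over each other library was at least 0.5 (background 17.5%).

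**Figure D1:**
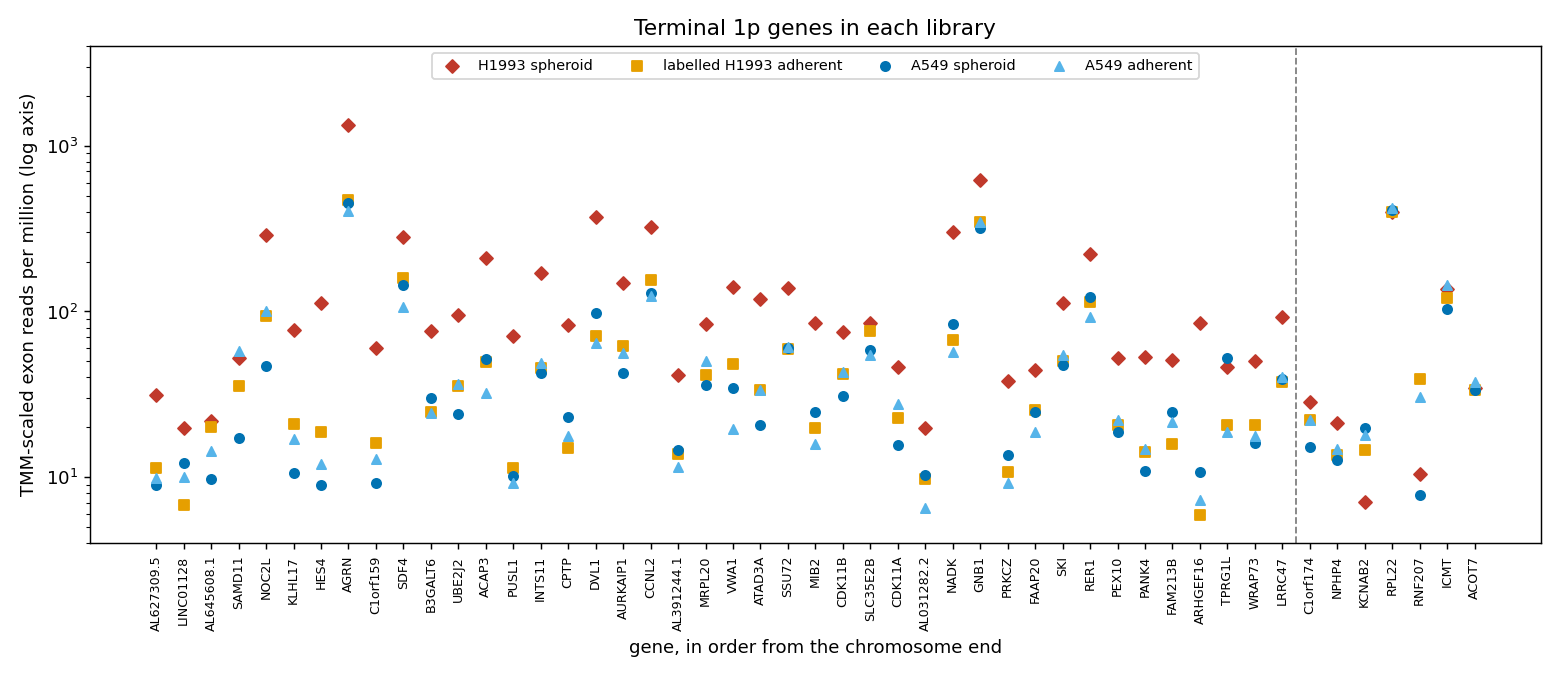
TMM-scaled exon reads in CPM (log axis) of 49 terminal genes in order from the chromosome end, with 1 symbol for each library and a dashed line before the last 7 genes. H1993 spheroids are the highest library in 40 of the 42 genes plotted left of the line and in 2 of the 7 genes right of it.

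The order along the chromosome showed roughly where the high levels ended. When the 50 genes and the 56 genes of the next 10000000 bases were split at the position that left the least absolute deviation around the medians of the 2 sides, the split over the library labelled H1993 adherent and over A549 adherent cells left the first 43 genes on the terminal side and fell before C1orf174 (3889125 to 3900293). Over A549 spheroids the terminal side held 42 genes. A549 spheroids over A549 adherent cells also split after the first 43 genes, with medians of 0.05 on the terminal side and -0.27 beyond. This split was sought after the values were known and is a description. C1orf174 itself had ratios of 0.37, 0.90 and 0.36 over the library labelled H1993 adherent, A549 spheroids and A549 adherent cells. No member lies between it and NPHP4 (start 5862811), so the end of the high levels is not placed exactly. The first 43 genes had medians of 1.47 over the library labelled H1993 adherent, 1.55 over A549 spheroids and 1.5 over A549 adherent cells. The 7 genes from C1orf174 on had medians of 0.03, 0.41 and -0.10, and the 56 genes of the next 10000000 bases had 0.07, 0.19 and 0.17. The label of high levels therefore holds for the first 43 genes and not for the last 7 as a group, of which NPHP4 alone reached 0.5 in each of the 3 comparisons.

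How well a single step describes the ratios can be read from the absolute deviation left by the split, as a percentage of that around 1 common median. It was 68.1% over the library labelled H1993 adherent, 72% over A549 spheroids and 69.3% over A549 adherent cells, against 97.1% in A549 spheroids over A549 adherent cells and 95.8% in the library labelled H1993 adherent over A549 adherent cells. In groups of 10 genes from the chromosome end, the medians over A549 adherent cells were 1.60, 1.82, 1.38, 1.26 and 0.14 for the terminal genes. They were 1.71, 1.89, 1.42, 1.14 and 0.53 over A549 spheroids, and 1.53, 1.77, 1.12, 1.26 and 0.27 over the library labelled H1993 adherent. The next 10 genes, from PLEKHG5 (start 6466092) to PARK7, had medians of 0.53 over A549 adherent cells, 0.73 over A549 spheroids and 0.53 over the library labelled H1993 adherent. The following 4 groups lay between -0.14 and 0.06, between -0.26 and 0.37, and between -0.24 and 0.03 in these comparisons. The last 6 genes, from SPEN to SZRD1, had medians of 0.43, 0.55 and 0.50.

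**Figure D2:**
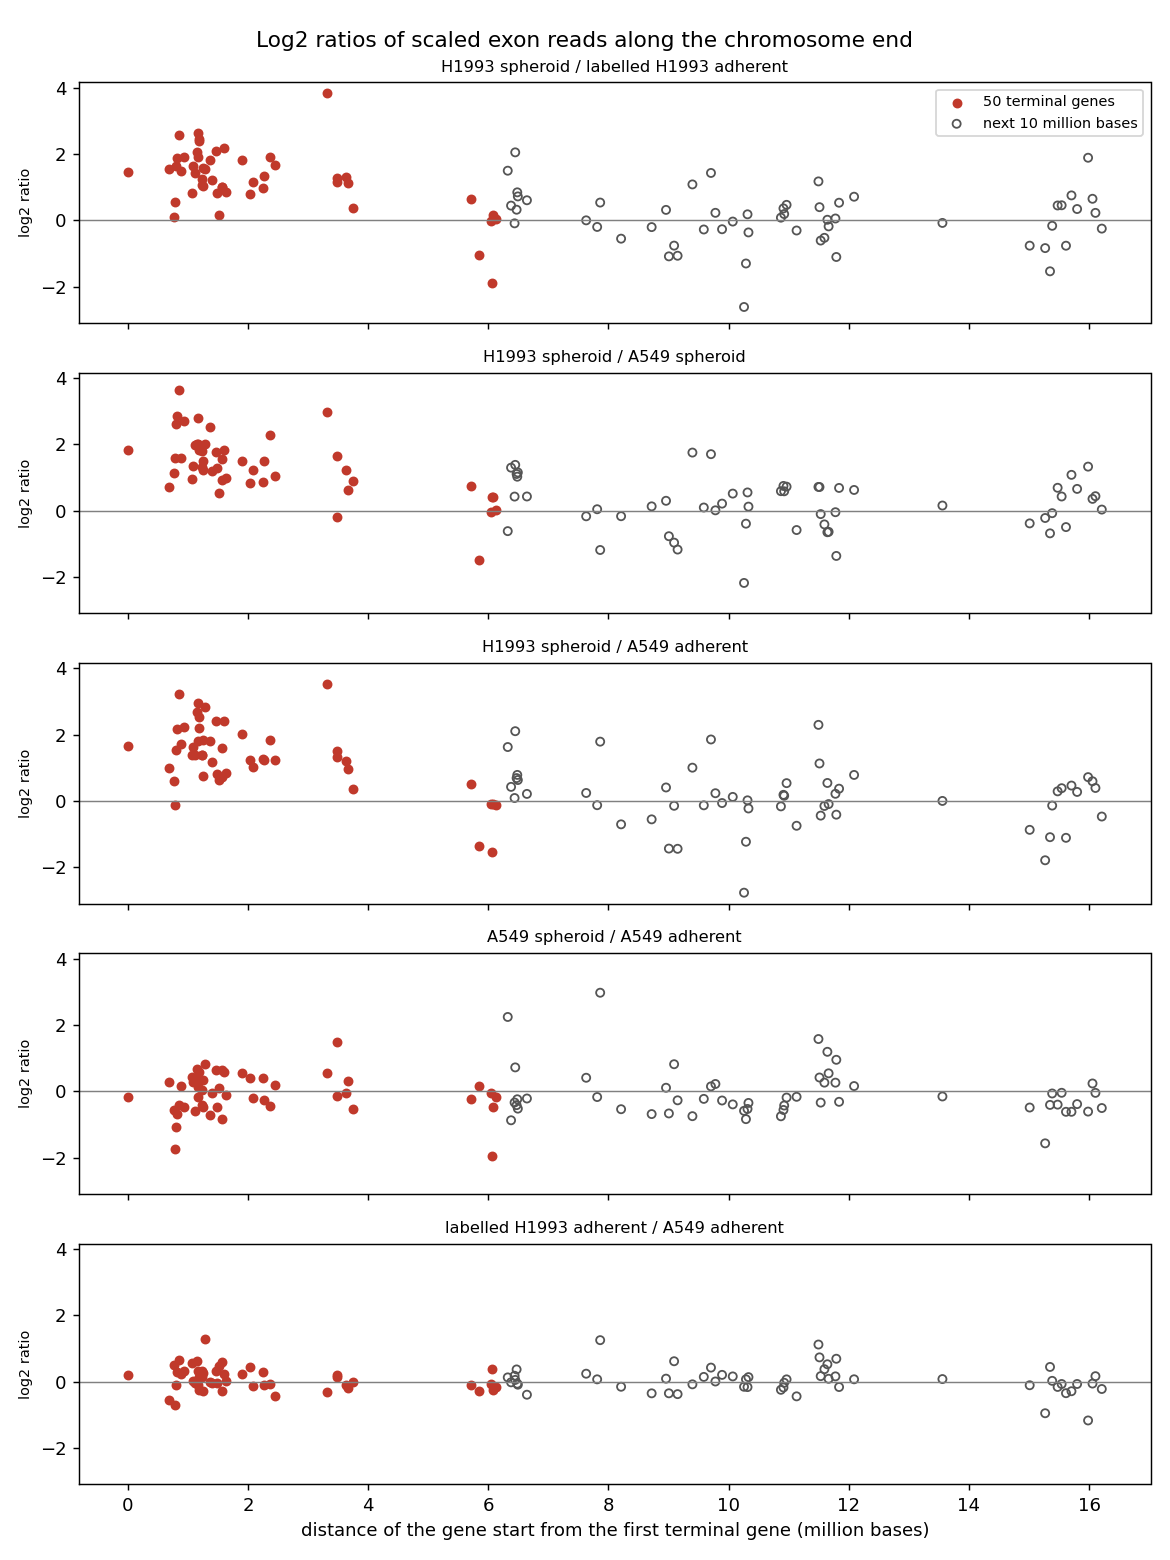
Log2 ratios of scaled exon reads (vertical axis) against the distance in megabases of each gene start from the first terminal gene, for 5 pairs of libraries, with the 50 terminal genes filled and the 56 genes of the next 10000000 bases open. In the upper 3 panels, which hold the H1993 spheroid library, most of the first 43 filled points lie above 0, and in the lower 2 panels the medians of the filled points are -0.04 and 0.01.

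Genes on both sides of the position limit had mixed ratios. The last 3 genes inside, RNF207, ICMT and ACOT7, had ratios over A549 adherent cells of -1.52, -0.08 and -0.13, and the first 3 outside, PLEKHG5, NOL9 and ZBTB48, had 1.63, 0.43 and 0.09. PLEKHG5, a guanine nucleotide exchange factor, also stood higher in A549 spheroids, at 530 reads, than in A549 adherent cells, at 107 reads, and its H1993 spheroid level was lower than the A549 spheroid one, with a ratio of -0.61. At the read minimum, the lowest members inside were ARHGEF16 with 103 reads in the library labelled H1993 adherent, AL031282.2 with 104 in A549 adherent cells and KCNAB2 with 108 in H1993 spheroids. Just under it were DFFB with 92 and MEGF6 with 90 reads in the library labelled H1993 adherent.

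Signalling genes included ARHGEF16, the member whose smallest ratio over the other 3 libraries was highest. Of the 8 members of this list 7 were at least 0.5 higher in H1993 spheroids than in each of the other 3 libraries, with medians of 1.85 over the library labelled H1993 adherent, 1.76 over A549 spheroids and 2.10 over A549 adherent cells. Over all 50 genes 84%, 88% and 86% reached 0.5 in these comparisons, and over autosomal genes 28.9%, 30.6% and 28.1%. The counts of this list and of the later lists stand beside those shares, and nothing about a function is read from them. ARHGEF16, a guanine nucleotide exchange factor (ENSG00000130762, 3454426 to 3481113), had 1296 reads in H1993 spheroids, 103 in the library labelled H1993 adherent, 178 in A549 spheroids and 116 in A549 adherent cells. Its log2 ratio was 3.84 (3.55 to 4.14) over the library labelled H1993 adherent, 2.98 (2.75 to 3.22) over A549 spheroids and 3.54 (3.26 to 3.82) over A549 adherent cells. H1993 spheroids stood apart and the other 3 libraries ranged from 5.93 to 10.7 CPM. Among these, A549 spheroids were above A549 adherent cells by 0.55 (0.21 to 0.90). DVL1, which passes Wnt signals from Frizzled receptors, had 374 CPM in H1993 spheroids, 71.2 in the library labelled H1993 adherent, 97.5 in A549 spheroids and 64.9 in A549 adherent cells. ACAP3, which switches off ARF GTPases, had 211 CPM in H1993 spheroids, 49.9 in the library labelled H1993 adherent, 51.7 in A549 spheroids and 32.4 in A549 adherent cells. Both genes were lowest in A549 adherent cells, and in both the A549 spheroid level was above the A549 adherent one, by 0.59 for DVL1 and 0.67 for ACAP3.

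AGRN and GNB1 gave the most reads among signalling genes. AGRN, the matrix proteoglycan agrin, had 20463 reads in H1993 spheroids, 8185 in the library labelled H1993 adherent, 7437 in A549 spheroids and 6393 in A549 adherent cells, which is 446, 149, 133 and 129 TPM. Its ratio was 1.51 (1.47 to 1.54) over the library labelled H1993 adherent, 1.58 (1.54 to 1.62) over A549 spheroids and 1.73 (1.69 to 1.77) over A549 adherent cells. As few as 80.6% of its reads in a library were uniquely placed. GNB1, a beta subunit of heterotrimeric G proteins, had 9541 reads in H1993 spheroids, 6036 in the library labelled H1993 adherent, 5272 in A549 spheroids and 5496 in A549 adherent cells. With ratios of 0.84 (0.80 to 0.89), 0.97 (0.92 to 1.02) and 0.85 (0.80 to 0.90) in the same order, GNB1 lay below the median of the first 43 genes. KLHL17, an adaptor of cullin ubiquitin ligases, had 77.2 CPM in H1993 spheroids, 21.0 in the library labelled H1993 adherent, 10.6 in A549 spheroids and 17.1 in A549 adherent cells. PRKCZ, an atypical protein kinase C of cell polarity, had 581 reads in H1993 spheroids, 187 in the library labelled H1993 adherent, 225 in A549 spheroids and 147 in A549 adherent cells, and its span overlaps FAAP20 and an antisense gene. Both again had H1993 spheroids apart from the rest. KCNAB2, a beta subunit of potassium channels and 1 of the last 7 genes, went the other way, with 7.06 CPM in H1993 spheroids, 14.6 in the library labelled H1993 adherent, 19.9 in A549 spheroids and 17.9 in A549 adherent cells.

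Among the 13 genes of transcription, RNA processing and translation, 12 were at least 0.5 higher in H1993 spheroids in each comparison, with medians of 1.29 over the library labelled H1993 adherent, 1.55 over A549 spheroids and 1.39 over A549 adherent cells. HES4, a repressor of the Notch target family (ENSG00000188290, 998962 to 1000172), had 1715 reads in H1993 spheroids, 327 in the library labelled H1993 adherent, 149 in A549 spheroids and 191 in A549 adherent cells, or 360, 57.4, 25.7 and 37.1 TPM. Its ratios were 2.57 (2.40 to 2.75), 3.64 (3.40 to 3.89) and 3.22 (3.005 to 3.444) over those 3 libraries. Only ARHGEF16 and PUSL1 had a higher smallest ratio among the 50 genes. PUSL1, named for its likeness to pseudouridine synthases, had 71.0 CPM in H1993 spheroids, 11.4 in the library labelled H1993 adherent, 10.1 in A549 spheroids and 9.19 in A549 adherent cells. The spans of PUSL1, ACAP3 and INTS11 overlap in the annotation, and whether counting used strand is not given, so their reads cannot be fully told apart. INTS11, the nuclease of the Integrator complex that cuts nascent RNA, had 171 CPM in H1993 spheroids, 45.7 in the library labelled H1993 adherent, 42.8 in A549 spheroids and 48.6 in A549 adherent cells.

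NOC2L, a nucleolar protein that inhibits histone acetyltransferases, had 291 CPM in H1993 spheroids, 93.3 in the library labelled H1993 adherent, 47.1 in A549 spheroids and 100 in A549 adherent cells. The A549 spheroid library was the lowest, at a log2 ratio of -1.09 to A549 adherent cells. CCNL2, a cyclin of splicing speckles, had 325 CPM in H1993 spheroids, 155 in the library labelled H1993 adherent, 129 in A549 spheroids and 125 in A549 adherent cells. SSU72, a phosphatase of the RNA polymerase II tail, had ratios close to each other, at 1.22, 1.21 and 1.17 over the library labelled H1993 adherent, A549 spheroids and A549 adherent cells. SKI, a repressor of TGF-beta signalling, MIB2, a ubiquitin ligase of Notch ligands, WRAP73 and LRRC47 completed the group. Their ratios were 1.03 to 1.24 for SKI, 1.78 to 2.42 for MIB2, 1.29 to 1.65 for WRAP73 and 1.20 to 1.30 for LRRC47. All 4 had H1993 spheroids as the highest library. The list is broad, and MIB2 was placed in it although ubiquitin ligation is none of the named processes. For WRAP73 and LRRC47 no role in these processes is given here either. The kinases CDK11B and CDK11A, near-identical neighbours with as few as 52.2% and 7.36% uniquely placed exon reads in a library, had ratios from 0.73 to 1.55 that are uncertain for each gene. RPL22, a protein of the large ribosomal subunit and 1 of the last 7 genes, was the member of the list that did not stand higher, with 396 CPM in H1993 spheroids, 400 in the library labelled H1993 adherent, 410 in A549 spheroids and 423 in A549 adherent cells. The same caution applies to RPL22, since as few as 31.5% of its reads in a library were uniquely placed.

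The 3 mitochondrial genes lay close together in the order of position and all stood higher. AURKAIP1, a protein of the small mitochondrial ribosomal subunit, had 317 TPM in H1993 spheroids, 126 in the library labelled H1993 adherent, 81.4 in A549 spheroids and 116 in A549 adherent cells. MRPL20, of the large subunit, had 108 TPM in H1993 spheroids, 50.6 in the library labelled H1993 adherent, 41.4 in A549 spheroids and 62.0 in A549 adherent cells. ATAD3A, an ATPase of the inner mitochondrial membrane, had ratios of 1.82, 2.52 and 1.82 over the library labelled H1993 adherent, A549 spheroids and A549 adherent cells, with as few as 73.2% of its reads uniquely placed. All 3 were lowest in A549 spheroids, where the ratio to A549 adherent cells was -0.41 for AURKAIP1, -0.47 for MRPL20 and -0.70 for ATAD3A.

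Of the 8 genes of metabolism and peroxisomes 6 were at least 0.5 higher in H1993 spheroids in each comparison, and the other 2, ICMT and ACOT7, are among the last 7 genes. The medians of the 8 were 1.65 over the library labelled H1993 adherent, 1.42 over A549 spheroids and 1.45 over A549 adherent cells. NADK, the cytosolic kinase that makes NADP from NAD, had 303 CPM in H1993 spheroids, 66.9 in the library labelled H1993 adherent, 84.5 in A549 spheroids and 56.9 in A549 adherent cells. Its ratios of 2.18 (2.09 to 2.28), 1.84 (1.76 to 1.93) and 2.41 (2.31 to 2.52) were above the medians of the first 43 genes. CPTP, a transfer protein for ceramide-1-phosphate, had 82.6 CPM in H1993 spheroids, 14.9 in the library labelled H1993 adherent, 22.96 in A549 spheroids and 17.8 in A549 adherent cells. PANK4, of the pantothenate kinase family, had ratios of 1.91, 2.28 and 1.84 over the library labelled H1993 adherent, A549 spheroids and A549 adherent cells, and B3GALT6, which builds the linker of glycosaminoglycans, had 1.63, 1.35 and 1.65. The peroxin PEX10, a ubiquitin ligase of peroxisomal import, had 1.35, 1.49 and 1.24, and FAM213B, a prostaglandin F synthase, had 1.68, 1.04 and 1.24. ICMT, which methylates prenylated proteins, had 136 CPM in H1993 spheroids, 121 in the library labelled H1993 adherent, 103 in A549 spheroids and 144 in A549 adherent cells. For ACOT7, an acyl-CoA thioesterase, the 4 levels lay between 33.7 and 37.7 CPM, and none of its 3 intervals excluded a ratio of 0.

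Of the 6 genes of the secretory pathway and membrane traffic 5, 5 and 6 were at least 0.5 higher in H1993 spheroids over the same 3 libraries, with medians of 1.07, 0.92 and 1.35. VWA1, a matrix protein, had 141 CPM in H1993 spheroids, 48.1 in the library labelled H1993 adherent, 34.8 in A549 spheroids and 19.6 in A549 adherent cells. It was also the member with the highest ratio of the library labelled H1993 adherent over A549 adherent cells, at 1.30. SDF4, a calcium-binding protein of the Golgi, and RER1, which returns membrane proteins to the endoplasmic reticulum, had ratios of 0.82 to 1.40 over the other 3 libraries. These lay below the median of the first 43 genes. UBE2J2, a ubiquitin-conjugating enzyme of the endoplasmic reticulum, had 95.6 CPM in H1993 spheroids, 35.6 in the library labelled H1993 adherent, 24.2 in A549 spheroids and 36.7 in A549 adherent cells.

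Ratios of the first 43 genes over the library labelled H1993 adherent ranged from 0.11 to 3.84. In 39 of these genes the lead over each other library was at least 0.5 (background 17.5%). The others are given next. TPRG1L, known in mice as a protein of synaptic vesicles, had 46.4 CPM in H1993 spheroids, 20.6 in the library labelled H1993 adherent, 52.7 in A549 spheroids and 18.6 in A549 adherent cells, so both spheroid libraries were high. SAMD11 had 52.4 CPM in H1993 spheroids, 35.4 in the library labelled H1993 adherent, 17.4 in A549 spheroids and 57.4 in A549 adherent cells. The ratio of SLC35E2B over the library labelled H1993 adherent was 0.15 (0.04 to 0.26). It was 0.53 over A549 spheroids and 0.63 over A549 adherent cells. This solute carrier had as few as 48.7% uniquely placed reads. For the noncoding RNA AL645608.1 the ratios were 0.11 (-0.11 to 0.33), 1.15 and 0.60 in the same order. H1993 spheroids were thus not the highest library in TPRG1L and SAMD11 alone among the first 43 genes.

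The 6 genes of DNA repair, apoptosis and cilia had medians of 0.72 over the library labelled H1993 adherent, 0.79 over A549 spheroids and 0.74 over A549 adherent cells, and 4, 5 and 4 of them reached 0.5. C1orf159, placed in this list although its role is not well known, had 60.1 CPM in H1993 spheroids, 16.0 in the library labelled H1993 adherent, 9.28 in A549 spheroids and 12.8 in A549 adherent cells. FAAP20, a subunit of the Fanconi anaemia core complex, had 44.3, 25.3, 24.9 and 18.8 CPM in the same order. The list is loose in function and holds genes from both sides of the change in level. C1orf174 had 28.4 CPM in H1993 spheroids, 22.1 in the library labelled H1993 adherent, 15.2 in A549 spheroids and 22.2 in A549 adherent cells. NPHP4, a protein of the ciliary transition zone (5862811 to 5992473), had ratios of 0.64, 0.75 and 0.53. RNF207, a ring finger protein, was low in both spheroid libraries, with 10.5 CPM in H1993 spheroids, 39.1 in the library labelled H1993 adherent, 7.84 in A549 spheroids and 30.3 in A549 adherent cells, and its span overlaps RPL22 and ICMT.

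The 5 noncoding members lay among the first 30 genes. AL627309.5, the first gene of the stretch, had 482 reads in H1993 spheroids, 198 in the library labelled H1993 adherent, 148 in A549 spheroids and 158 in A549 adherent cells, but as few as 1.27% of them were uniquely placed. LINC01128 had 7.5, 2.4, 4.1 and 3.6 TPM in the same order, and AL391244.1, whose span overlaps MRPL20, had 41.3, 13.8, 14.6 and 11.6 CPM. AL031282.2 had no uniquely placed reads in at least 1 library. Apart from AL645608.1 over the library labelled H1993 adherent, each of the 5 was at least 0.5 higher in H1993 spheroids in each comparison.

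Members of complexes and families whose partners lie elsewhere in the genome were set beside those partners, with ratios in turn over the library labelled H1993 adherent, A549 spheroids and A549 adherent cells. INTS11 stood at 1.91 over the library labelled H1993 adherent and 2.001 over A549 spheroids, where the 13 other Integrator subunits had medians of -0.04 and 0.04. Over A549 adherent cells INTS11 was at 1.82 against a median of 0.10, with INTS3, on the long arm of chromosome 1, at 1.87. For MRPL20 the ratios of 1.02, 1.22 and 0.75 compare with medians of 0.07, 0.24 and 0.03 over 47 other genes of the large mitochondrial subunit, of which 5, 3 and 4 reached or passed it. DVL1, at 2.39, 1.94 and 2.53, was above DVL3, at 0.71, 0.95 and 0.84, and above DVL2, at -0.23, 0.11 and 0.06. PEX10 was reached or passed by 0, 0 and 1 of the 13 other measured peroxins, whose medians were 0.47, 0.38 and 0.42. Other lists were mixed. GNB1 lay below GNB2, a gene on chromosome 7, at 1.65, 2.52 and 2.05, and above GNB5, at -1.33, -2.17 and -1.93. PANK4 was followed by PANK1, at 1.61, 1.71 and 1.52, and PANK2 was far lower, at -1.32, -1.15 and -1.39. PANK3 lay between PANK1 and PANK2 in each comparison. SSU72 was passed by 1, 3 and 2 of 10 other genes of messenger RNA end processing. RPL22 lay below the median of 42 other proteins of the large cytosolic subunit in each comparison, which was 0.44, 0.11 and 0.22.

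**Figure D3:**
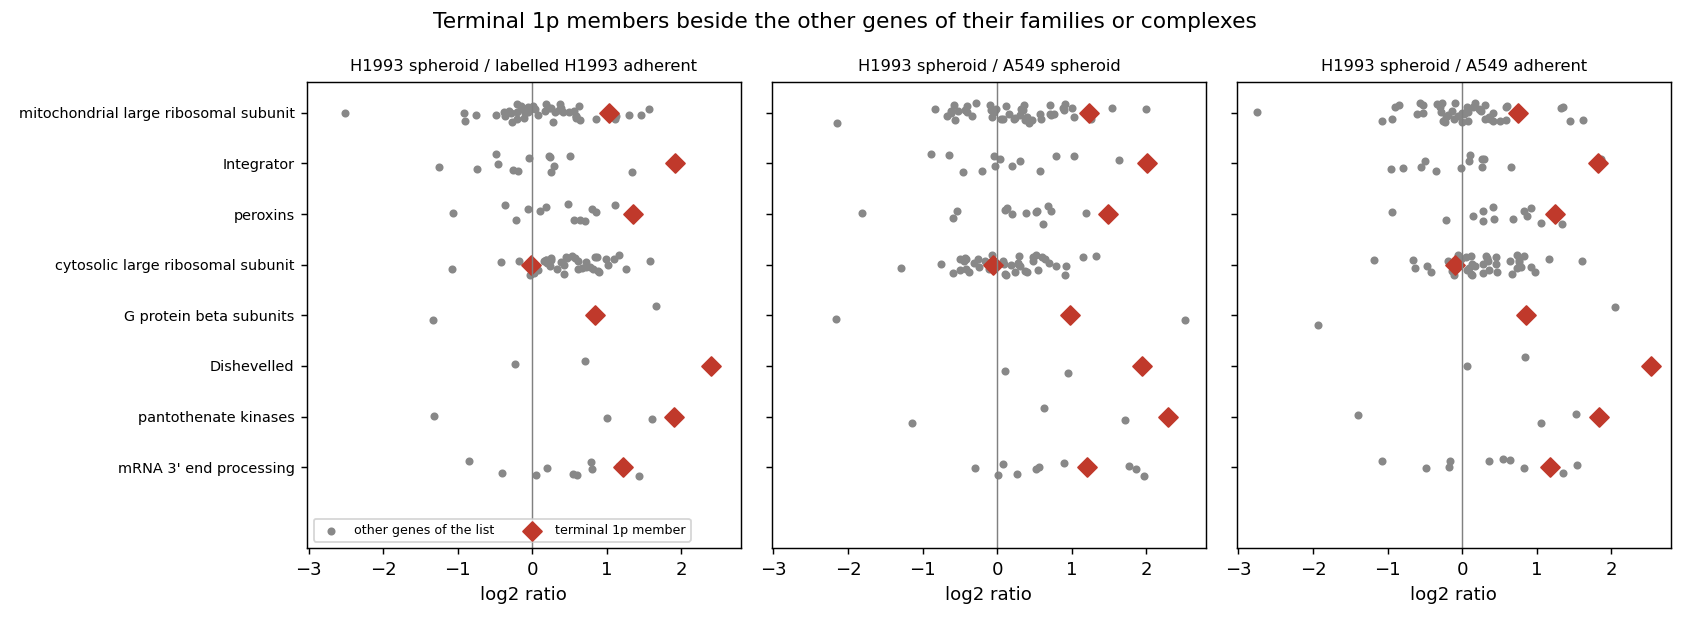
Log2 ratios of H1993 spheroids over each of the other 3 libraries (horizontal axis) for 8 terminal genes (diamonds) and the other measured genes of their complexes or families (dots). INTS11 stands at 1.91, 2.001 and 1.82 and its partners have medians of -0.04, 0.04 and 0.10, and RPL22 lies at -0.02, -0.05 and -0.10.

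Intron reads, a separate set of reads that come mainly from unspliced RNA, gave ratios of like size in the same libraries. Among the 50 genes 35 had at least 20 intron reads in each library, and 30 of these were among the first 43. Their intron medians were 1.39 over the library labelled H1993 adherent, 1.45 over A549 spheroids and 1.35 over A549 adherent cells, and 28 of the 30 reached 0.5 over the library labelled H1993 adherent (background 29.2% of the 7012 autosomal genes with as many intron reads), 27 over A549 spheroids (background 29.6%) and 29 over A549 adherent cells (background 29.2%). For the 5 genes among the last 7 the medians were 0.30, 0.39 and -0.24. ARHGEF16 had lower intron than exon ratios, at 2.90, 1.27 and 2.39, and NADK had higher ones, at 2.72, 2.63 and 2.93. Introns made up 11.6% of gene reads in H1993 spheroids, 10.7% in the library labelled H1993 adherent, 8.43% in A549 spheroids and 10.1% in A549 adherent cells.

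**Figure D4:**
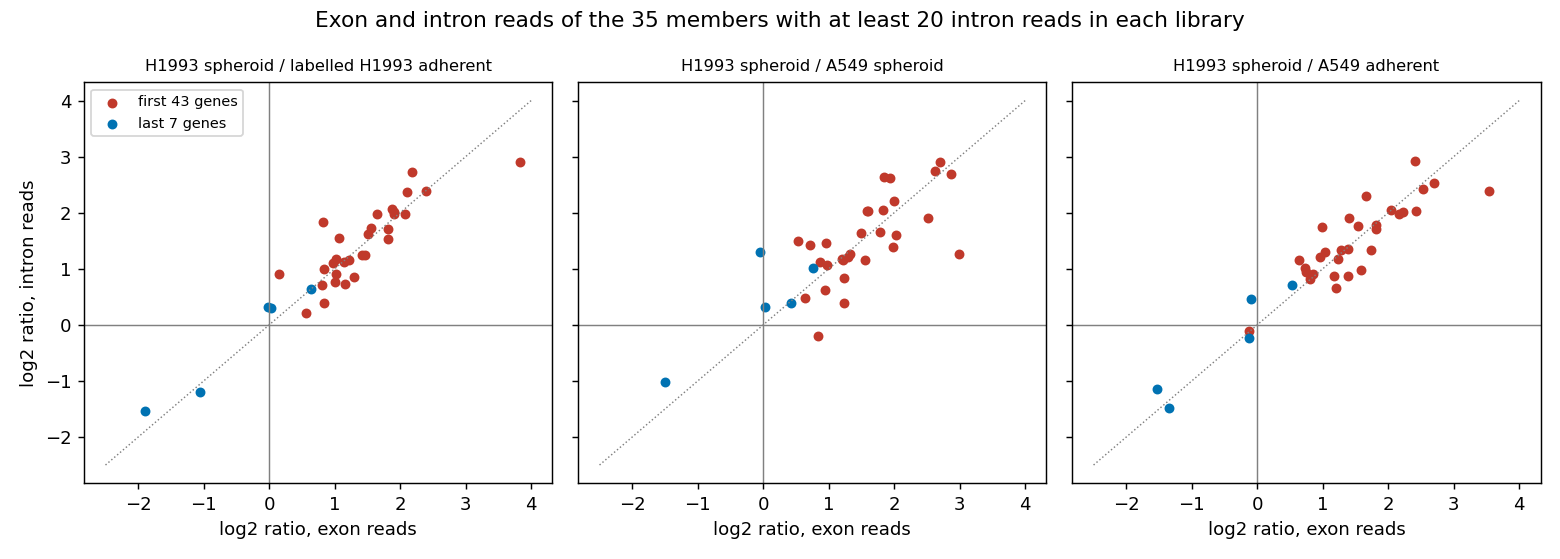
Log2 ratios from intron reads (vertical axis) against those from exon reads (horizontal axis) for the 35 terminal genes with at least 20 intron reads in each library, with a dotted line of equality. The 30 among the first 43 genes have intron medians of 1.39, 1.45 and 1.35, and the 5 later genes have 0.30, 0.39 and -0.24.

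Against the rest of the autosomes, the 50 terminal genes form 1 of 173 windows of 50 neighbouring genes. Their medians ranked second of 173 over the library labelled H1993 adherent, over A549 spheroids and over A549 adherent cells, behind a window on chromosome 7 from 97852118 to 101139266 with 1.47, 1.76 and 1.61. The next window on chromosome 1, from 6466092 to 15786594, had 0.01, 0.13 and 0.11. In A549 spheroids over A549 adherent cells the terminal window ranked 84 of 173, and in the library labelled H1993 adherent over A549 adherent cells 72 of 173. High windows were thus not limited to this chromosome end.

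Base composition moved with these ratios. The transcripts of the 50 genes had a median of 59.8% G and C bases, against 48.8% over autosomal genes, and 34 of the 50 lay in the upper 5 of 20 equal bins of G and C content. In the highest bin, the median ratio of all its genes was 0.42 over the library labelled H1993 adherent, 0.47 over A549 spheroids and 0.43 over A549 adherent cells. After the median of its bin was taken from each gene, the 50 genes had medians of 1.12, 1.18 and 1.19. The 13 other windows with at least as much G and C as the terminal one had medians up to 0.51, 0.74 and 0.78. The part of base composition in the ratios that remain was not tested.

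**Figure D5:**
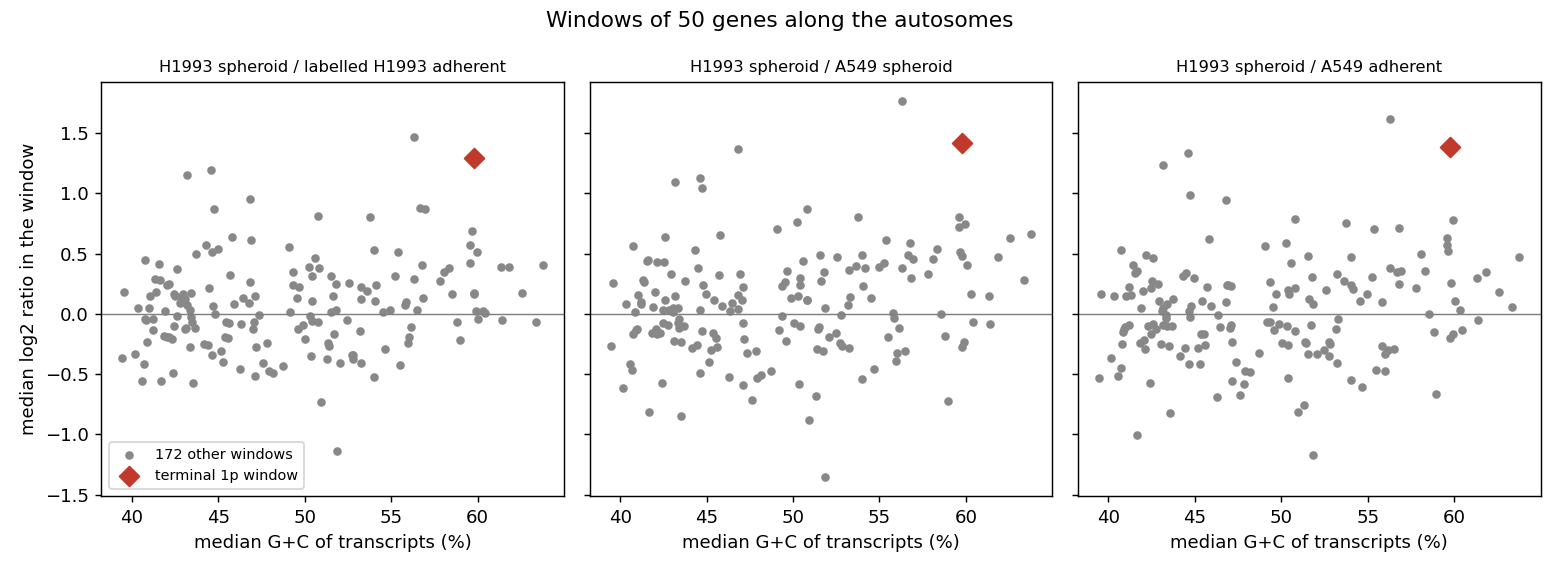
Median log2 ratio (vertical axis) of each window of 50 neighbouring autosomal genes against the median G and C content of its transcripts in percent (horizontal axis), for H1993 spheroids over each of the other 3 libraries. The terminal window lies at 59.8% with 1.29, 1.42 and 1.38, and the 13 other windows with at least as much G and C reach 0.51, 0.74 and 0.78.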

How the data were processed

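Messenger RNA of 4 samples (2 cell lines, 2 cultures) was sequenced with a stranded kit and limited PCR, 1 library each, per the labels' protocols. The build was hg38, per the submitters' processing notes, and the aligner, the counting program and whether it used strand were not given in the sources used here. In each table the authors deposited whole-number counts of reads per gene, with exon, intron and unique reads in separate columns, per the file headers. The deposited TPM summed to 1000000 in each library and is used for levels compared between genes, and the deposited RPKM was not used. The deposited fraction of unique reads was read as a percentage of exon reads.

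Total exon counts were scaled by TMM factors from edgeR 4.0.16 (R 4.3.3) over 15273 genes kept by filterByExpr. Tables, windows and figures were made with Python 3.11.15, numpy 2.4.6, pandas 2.3.3 and matplotlib 3.10.9, and exact 95% Clopper-Pearson intervals with scipy 1.17.1. At these depths 3 reads are between 0.170 and 0.196 CPM. PCR copies cannot be told from molecules, so intervals cover counting error only. Of the 50 genes 48 had the same position in GENCODE 29, 29 overlap another gene model, and 8 had under 90% unique exon reads in a library. Antisense and overlapping genes are uncertain. No p-value was computed, since each group was 1 library. The members and lists were chosen with earlier results of these data known. Named genes were the 12 with the highest smallest ratio and the 8 with the lowest largest ratio of H1993 spheroids over the other 3 libraries, the 3 on each side of the position limit, the 4 with the most reads and up to 4 per role list. Some values of 1 member are not reported here. Other members were added to complete their groups, after their values were seen. Alternatives were other scalings, including size factors from DESeq2 1.42.0, read columns, filters, position limits, summaries and a G and C correction. The median ratio and the search for the split were tested on simulated data. There every gene up to the split rose by a common fold, unlike the spread of ratios seen here. The split was checked at the larger simulated fold alone.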

Additional observations from a re-analysis of the deposited data

Results flagged for a closer look

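Spheroid over adherent culture had opposite signs in the H1993 pair as labelled and in the A549 pair for 13 of the 36 named genes, which includes genes just outside the position limit. With 1 library per group the difference between the pairs was not tested. By the same rule, that both counting intervals exclude 0 on opposite sides, 28.2% of the 9184 autosomal genes had opposite signs, and 16.2% were higher in the spheroid library of the H1993 pair and lower in that of the A549 pair. The stretch itself was chosen for high H1993 spheroid levels, so nothing particular to the stretch is read from the 13. Given as the H1993 log2 ratio and then the A549 log2 ratio, values among the first 43 genes were HES4 at 2.57 and -0.42, C1orf159 at 1.91 and -0.47, KLHL17 at 1.88 and -0.69, PANK4 at 1.91 and -0.45, ATAD3A at 1.82 and -0.70. Further genes of these 43 were INTS11 at 1.91 and -0.18, GNB1 at 0.84 and -0.12, NOC2L at 1.64 and -1.09, AURKAIP1 at 1.26 and -0.41 and MRPL20 at 1.02 and -0.47. Beyond them the values were ICMT at 0.17 and -0.48, C1orf174 at 0.37 and -0.54 and NOL9 at 0.45 and -0.87. In these 13 genes the H1993 ratio rests on the library labelled H1993 adherent, which lay close to A549 adherent cells.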

How the results depend on the processing

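Of 180 values recomputed under alternatives 158 stayed within a spread from counting error or within 1.5 times the count reported, and 22 moved. For the median over the library labelled H1993 adherent this spread was 0.17, while the quartiles of the 50 ratios were 0.84 and 1.82. Every median ratio with H1993 spheroids kept its sign, while the medians near 0 did not: A549 spheroids over A549 adherent cells ranged from -0.18 to 0.15, and the library labelled H1993 adherent over A549 adherent cells from -0.01 to 0.23. With at least 500 reads per library (20 genes) the medians were 1.11 over the library labelled H1993 adherent and 1.24 over A549 spheroids, the distance to the next 10000000 bases over A549 spheroids was 0.92, and the counts past 0.5 were 16, 17 and 17, a drop fixed by the smaller number of genes. With 1 read per library (101 genes) the medians were 1.64 over A549 adherent cells and 0.23 for the library labelled H1993 adherent over A549 adherent cells, the distance over A549 adherent cells was 1.58, and the counts were 81, 86 and 86. With the G and C correction the 3 medians were 1.12, 1.18 and 1.19. Intron reads gave 29 of 35 genes past 0.5 over A549 spheroids (background 29.6%). Added after seeing the data, the first 43 genes gave 1.47 over the library labelled H1993 adherent. The 21 genes whose span meets no other gene model, also added then, gave a median of 1.80 and a distance of 1.61 over A549 spheroids and counts of 19, 20 and 20. Why they lay higher was not tested, and background shares for the counts under other read minima are not given here. Library size in place of TMM moved the median of all autosomal genes by up to 0.11. No paired analysis was possible because the groups share 1 replicate number, with 1 library each, and no value comes from a test. Depth limits the least covered members: at 103 reads the interval of ARHGEF16 spans 3.55 to 4.14.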

Other observations

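Genes of the same stretch that fell short of the read minimum are outside the counts above, and their levels also differed between libraries. Of the 143 such genes 18 had at least 100 reads in H1993 spheroids, 10 of them with under 100 reads in each of the other 3 libraries, and 2 had under 100 reads in H1993 spheroids but at least 100 in another library. These are 12.6%, 6.99% and 1.40% of the 143, against 4.07%, 1.59% and 4.42% of the 32769 autosomal gene models that fell short of the minimum, a set that includes gene models with no reads. Genes were picked here after their values were seen, and the values are descriptions.

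MEGF6, which codes for a protein with epidermal growth factor repeats, had 5082 reads in H1993 spheroids, 90 in the library labelled H1993 adherent, 878 in A549 spheroids and 198 in A549 adherent cells. RNF223, a ring finger gene, had 1299 reads in H1993 spheroids, 65 in the library labelled H1993 adherent, 4 in A549 spheroids and 3 in A549 adherent cells. TNFRSF18, the receptor GITR known from T cells, had 1022 reads in H1993 spheroids, 40 in the library labelled H1993 adherent, 0 in A549 spheroids and 1 in A549 adherent cells. ATAD3B, the neighbouring copy of ATAD3A with which it may share reads, had 1424, 140, 20 and 38 reads in that order of libraries. TAS1R3, a sweet and umami taste receptor whose span overlaps DVL1, had 283, 2, 14 and 8 reads. ISG15, a ubiquitin-like protein induced by interferon, had 581, 176, 46 and 36 reads. All 6 genes were highest in H1993 spheroids, and they were picked with these values known. SLC35E2, next to SLC35E2B, had 91, 94, 107 and 86 reads and showed no such order. The noncoding RNA AL645608.3 had 99, 125, 43 and 62 reads and was highest in the library labelled H1993 adherent.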
